A study of Mus musculus with 5 samples.

Results

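The 10 mouse genes described here are cyclins, cyclin-dependent kinases (CDKs) and regulators of mitosis: Ccnd1, Ccnd3, Ccne1, Ccna2, Ccnb1, Cdk1, Cdk2, Cdk4, Plk1 and Cdc20. They were taken by gene symbol from 21849 genes with a protein-coding transcript in the deposited table. Each gene was represented by its protein-coding transcript with the highest mean level. All 10 passed the filter on low counts.

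The data were ribosome profiling libraries of cultured pluripotent mouse embryonic stem cells (mESCs), kept with LIF and serum on gelatin. Ribosome profiling (RIBO-seq) counts RNA fragments protected from nuclease by ribosomes, so a gene's count depends on both its mRNA amount and the number of ribosomes on each mRNA, and these cannot be told apart here. In all libraries the cells received cycloheximide, an inhibitor of elongation, and RNase I (1.3 U, 45 min) was used to digest each lysate. Standard RIBO-seq (3 libraries) collected ribosomes by centrifugation through a 30% sucrose cushion. AHARIBO RIBO-seq (2 libraries) captured ribosomes through nascent peptides that carried azidohomoalanine (AHA), a methionine analogue, which was linked to biotin with 50 µM of a DBCO reagent and bound to magnetic beads. The labels give no genetic alteration and state no AHA dose for these libraries, and they list all 5 libraries as untreated. In the authors' RNA-seq and proteomics of these cells, AHA was given after a period in methionine-free medium. They state that such starvation can alter the state of the cells. Their description of ribosome profiling does not say which libraries had this step. The labels call the libraries of each method biological replicates. The comparison addressed here is whether footprints of this gene family are recovered alike by both methods.

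Cyclins are the regulatory subunits that switch CDKs on. D-type cyclins act with Cdk4 in G1 phase, cyclin E1 with Cdk2 at entry into S phase, cyclin A2 with Cdk2 and Cdk1 through S and G2 phases, and cyclin B1 with Cdk1 at entry into mitosis. Plk1 is a mitotic kinase, and Cdc20 activates the anaphase-promoting complex (APC/C), the ubiquitin ligase that marks cyclin B1 and securin for destruction. Mouse embryonic stem cells are known for a short G1 phase and for cyclin E and cyclin A kinase activity that varies little over the cycle.

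The start codon regions of the 10 transcripts are shown because AHA enters a nascent peptide only at methionine codons. Each line runs from 9 bases before the start codon to 21 bases from its first base, 5′ to 3′, with the start codon in capitals. The sequences are those of Gencode M21 transcripts on GRCm38, and the coordinates are those of the whole transcript.
Ccnd1 (ENSMUST00000093962.4, chr7:144929931-144939869, minus strand): ggccgcgccATGgaacaccagctcctgtgc
Ccnd3 (ENSMUST00000182209.7, chr17:47593470-47599689, plus strand): catcgcaggATGgagctgctgtgttgcgag
Cdk4 (ENSMUST00000006911.11, chr10:127063534-127067920, plus strand): gcttcgagaATGgctgccactcgatatgaa
Ccne1 (ENSMUST00000108023.9, chr7:38097984-38107534, minus strand): tcctgagccATGccaagggagagagactcg
Cdk2 (ENSMUST00000026416.14, chr10:128697944-128705030, minus strand): tagcgctccATGgagaacttccaaaaggtg
Ccna2 (ENSMUST00000029270.9, chr3:36564865-36572150, minus strand): ggagccgcgATGccgggcacctcgaggcat
Cdk1 (ENSMUST00000020099.12, chr10:69335146-69352938, minus strand): tgagtaactATGgaagactatatcaaaata
Ccnb1 (ENSMUST00000072119.14, chr13:100778650-100786570, minus strand): ggaggagccATGgcgctcagggtcactagg
Plk1 (ENSMUST00000033154.7, chr7:122159439-122169873, plus strand): ttcggcatcATGaatgcagcggccaaagct
Cdc20 (ENSMUST00000006565.12, chr4:118432901-118437352, minus strand): agcggtgccATGgcgcagttcgtgttcgag

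A purine stood 3 bases before the start codon in 9 of the 10 genes, against 85.5% of 12210 protein-coding genes, and Cdk2 was the exception. A G followed the start codon in 7 of the 10, against 53.4% of those genes. Ccne1, Ccna2 and Plk1 lacked it. Methionine codons, the start included, numbered from 6 in Cdk2 to 19 in Ccnb1, with 16 in Ccne1 and 12 in Ccnd1. Per 100 codons the members ranged from 1.49 in Plk1 to 4.42 in Ccnb1, with a median of 2.67, and the median of all those genes was 2.13. The second methionine codon came at codon 13 in Ccne1, at codon 21 in Ccnb1 and as late as codon 139 in Ccna2.

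The libraries held 6403651 to 11150527 counts after the removal of duplicate reads, and 3 counts, taken as the smallest level that can be read, equalled 0.262 to 0.476 CPM, the counts scaled to library size. Counts of replicates differed beyond sampling noise in both methods (chi-square per degree of freedom of 1.24 to 1.82 within standard and 1.96 within AHARIBO). The summed level of 10 stem cell markers was 1500.5 to 1606 CPM in standard and 1349 to 1470 CPM in AHARIBO libraries, and 3 of the 10 (Sox2, Klf4 and Utf1) were lower in AHARIBO (edgeR, adjusted p under 0.05), against 2.53% of all genes. Markers of endoderm, mesoderm and fibroblasts summed to between 0.899 and 5.04 CPM in every library, with T and Col3a1 below 0.16 CPM in each. The 5 neural markers summed to 42.0 to 46.3 CPM, most of it from Tubb3. The part of these marker differences in the results below was not tested.

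No cyclin, CDK or mitotic regulator among the 10 differed between AHARIBO and standard RIBO-seq past the threshold. Of the highest transcripts of 12363 genes, 5.13% passed it (edgeR quasi-likelihood test, adjusted p under 0.05 over all transcripts tested), 2.6% higher and 2.53% lower in AHARIBO. At an unadjusted p under 0.05 there were 3 of 10 members (Ccnd3, Cdk4 and Cdc20, with lower levels in AHARIBO), against 19.4% of all genes. DESeq2 also called 0 of 10, against 1.46% of the genes to which it gave an adjusted p. The 95% intervals of the fold of AHARIBO over standard lay between 0.78 and 1.30 for every member, so larger differences than these were outside the intervals.

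The median log2 fold change of the members was -0.03, and that of all genes was -0.003. The libraries of both methods did not overlap in 5 of the 10 genes, against 34.3% of all genes. Ccnd1 lay higher in both AHARIBO libraries (17.3% of all genes did so), and Ccnd3, Cdk4, Plk1 and Cdc20 lay lower (17.1%). The levels of the 10 genes summed to 827 to 834 CPM in the standard and 764 to 807 CPM in the AHARIBO libraries. Scaling by library size in place of TMM moved the median of all genes by 0.04 on the log2 scale, and the small negative values of Ccne1, Ccna2 and Cdk1 then became positive.

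**Figure D1:**
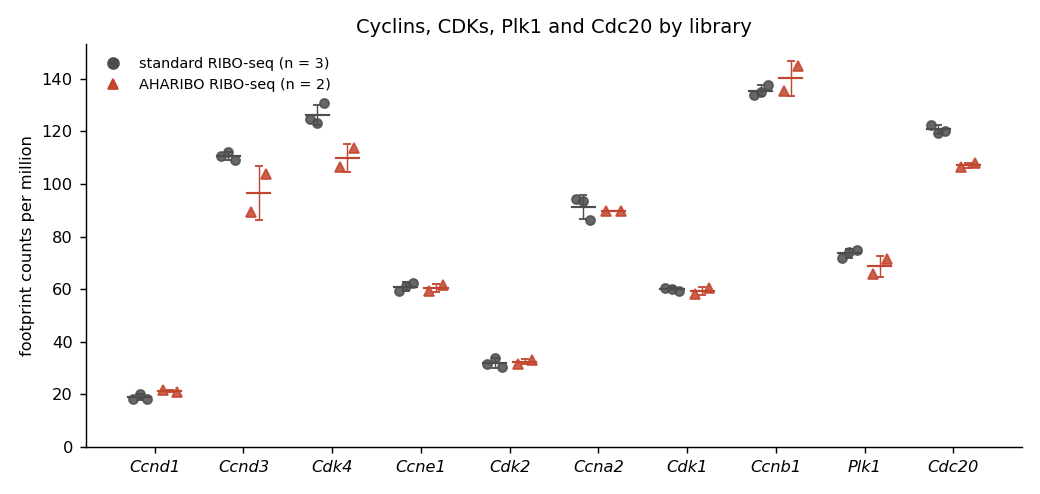
Footprint level (CPM, vertical axis, from 0) of each gene in the 3 standard (circles) and 2 AHARIBO libraries (triangles), with horizontal lines for means and bars for the SD. The symbols of the methods overlap for Ccne1, Cdk2, Ccna2, Cdk1 and Ccnb1, and the AHARIBO libraries lie below the standard ones for Ccnd3, Cdk4, Plk1 and Cdc20.

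The G1 members differed in sign, and none passed the threshold. Ccnd1, the D-type cyclin best known as a target of growth factor signalling, had 18.1, 20.2 and 18.2 CPM in the standard libraries and 21.5 and 21.1 CPM in the AHARIBO libraries. Both AHARIBO libraries lay above all standard ones, with a log2 fold change of 0.17 ± 0.10 (SE, adjusted p = 0.394). This was the least read member, with 115 to 246 counts per library. Ccnd3, the D-type cyclin with the higher level here, had 111, 112 and 109 CPM in standard and 89.3 and 103.9 CPM in AHARIBO. Both AHARIBO libraries lay below, but 14.5 CPM apart, with a log2 fold change of -0.20 ± 0.08 (SE, adjusted p = 0.148). Without AHARIBO replicate 1 the log2 fold change of Ccnd3 was -0.09 (adjusted p = 0.814), and without AHARIBO replicate 2 it was -0.31 (adjusted p = 0.0394). In both of these fits a lone AHARIBO library is assumed to vary like the standard ones. Cdk4, the catalytic partner of both, had 125, 123 and 131 CPM in standard and 106 and 114 CPM in AHARIBO. Here too both AHARIBO libraries lay below, with a log2 fold change of -0.20 ± 0.08 (SE, adjusted p = 0.140).

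Of 8 ratios of levels between members, per kb of coding sequence, 3 were lower and 2 higher in both AHARIBO libraries than in all standard ones, and 3 overlapped. Ccnd3 over Ccnd1 was 6.17, 5.62 and 6.04 in standard and 4.19 and 4.98 in AHARIBO libraries, without overlap. Cdk4 over Cdk1 was 2.06 ± 0.08 (SD, n = 3) in standard and 1.82 ± 0.04 (SD, n = 2) in AHARIBO, and Cdk4 over Cdk2 was 4.53 ± 0.38 and 3.88 ± 0.07. Neither pair overlapped. Ccnb1 over Ccne1 was higher in AHARIBO, with 2.11 ± 0.03 and 2.20 ± 0.05, as was Ccnb1 over Cdk1, with 1.56 ± 0.04 and 1.63 ± 0.04. The ratios that overlapped were Ccnb1 over Ccna2 (1.46 ± 0.10 and 1.54 ± 0.07), Cdk1 over Cdk2 (2.20 ± 0.11 and 2.14 ± 0.01) and Cdc20 over Plk1 (1.98 ± 0.07 and 1.89 ± 0.09). The share of all gene pairs that do not overlap was not computed. These ratios combine the values given for each gene and were not tested.

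The genes of S phase entry overlapped between the methods. Ccne1, which drives entry into S phase with Cdk2, had 59.3, 61.4 and 62.3 CPM in standard and 59.3 and 61.5 CPM in AHARIBO. The libraries overlapped, and the fold of AHARIBO over standard was 0.99 with a 95% interval of 0.89 to 1.11 (adjusted p = 0.96). Cdk2 had 31.4, 34.0 and 30.5 CPM in standard and 31.7 and 33.1 CPM in AHARIBO, with a fold of 1.01 and an interval of 0.89 to 1.14 (adjusted p = 0.965).

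Ccna2, the cyclin of S and G2 phases, had 94.3, 93.5 and 86.1 CPM in standard and 89.6 and 89.7 CPM in AHARIBO. Both AHARIBO libraries lay inside the standard range, with a fold of 0.98 and an interval of 0.88 to 1.09 (adjusted p = 0.888). Cdk1, the kinase of mitotic entry, had 60.6, 60.3 and 59.5 CPM in standard and 58.4 and 60.3 CPM in AHARIBO, with a fold of 0.99 and an interval of 0.88 to 1.10 (adjusted p = 0.931). It was the steadiest member across the standard libraries, with an SD of 0.572 CPM.

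Ccnb1, the mitotic partner of Cdk1, had the highest CPM of the members: 134, 135 and 138 in standard and 136 and 145 in AHARIBO. The fold was 1.03 with an interval of 0.93 to 1.15 (adjusted p = 0.794). Ccnb1 over Cdk1, per kb of coding sequence, was 1.56 ± 0.04 (SD, n = 3) in standard and 1.63 ± 0.04 (SD, n = 2) in AHARIBO, the AHARIBO libraries lying just above.

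Plk1, the kinase of spindle assembly and mitotic progression, had 71.8, 74.3 and 75.0 CPM in standard and 65.9 and 71.5 CPM in AHARIBO. The methods were separated by 0.311 CPM, with a log2 fold change of -0.10 ± 0.08 (SE, adjusted p = 0.534). Cdc20 had 122.6, 119.5 and 120.3 CPM in standard and 106.4 and 107.8 CPM in AHARIBO. Its replicates were close in both methods, and the log2 fold change was -0.17 ± 0.08 (SE, adjusted p = 0.202).

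Levels of different genes were compared as CPM per kb of coding sequence, where the members spanned 6.52-fold in the standard libraries. Cdk4 was highest (139 ± 4.32, SD, n = 3), followed by Ccnd3 (126 ± 1.84), Ccnb1 (105 ± 1.64), Cdc20 (80.7 ± 1.05), Ccna2 (72.1 ± 3.56), Cdk1 (67.5 ± 0.642), Ccne1 (49.8 ± 1.29), Plk1 (40.7 ± 0.933), Cdk2 (30.8 ± 1.77) and Ccnd1 (21.3 ± 1.31). The means had the same order in AHARIBO, from 121 ± 5.79 (SD, n = 2) for Cdk4 to 24.1 ± 0.362 for Ccnd1. Neighbours did not overlap in the standard libraries, but in AHARIBO Ccnd3 overlapped with Cdk4 and with Ccnb1. All members were well read genes, from the 76.9th percentile of genes tested for Ccnd1 to the 97.2th for Cdk4.

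The order depended on the length used. Per kb of the whole transcript, Cdc20, whose transcript is 83.5% coding, came first, and Cdk1, whose transcript is 20.4% coding, moved from rank 6 to rank 8. The span was then 13.4-fold. Summed over all protein-coding transcripts, each per kb, Ccnd3 stood 95.5-fold above Ccnd1, because the table lists 16 protein-coding transcripts of Ccnd3 and 1 of Ccnd1. With duplicate reads kept, Cdk4 stood 9.75-fold above Ccnd1.

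**Figure D2:**
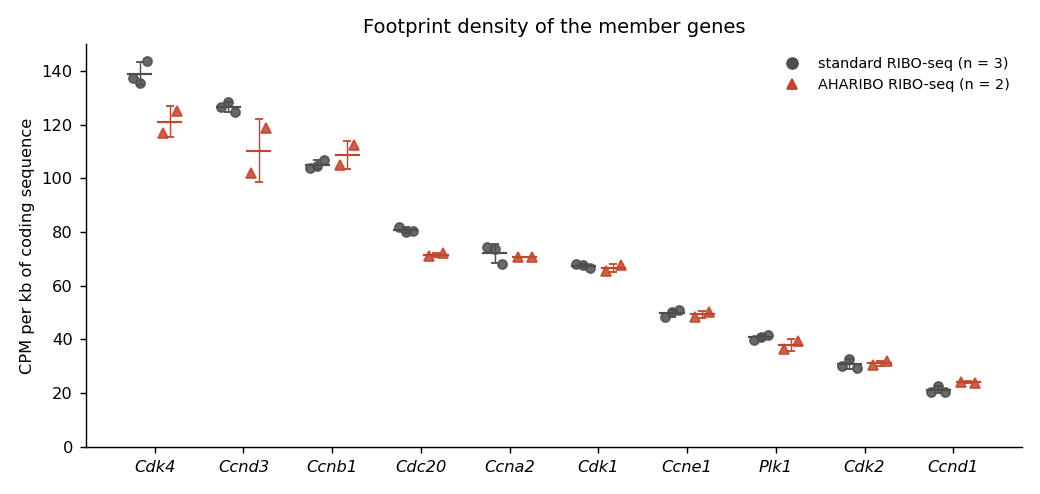
Footprint density (CPM per kb of coding sequence, from 0) of the 10 genes in order of the standard mean, in 3 standard (circles) and 2 AHARIBO libraries (triangles), with lines for means and bars for the SD. Cdk4, Ccnd3 and Ccnb1 lie above 100 in all libraries and Ccnd1 lies below 25 in all.

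The other genes of the cell cycle were read from a list of 71, of which 68 were tested. Of the 68, 4 passed the threshold, 2 higher and 2 lower in AHARIBO, against 5.13% of all genes, and the median log2 fold change was 0.03. Cdc27, a subunit of the APC/C, rose from 18.4, 19.2 and 17.5 CPM in standard to 25.6 and 25.2 CPM in AHARIBO, a log2 fold change of 0.46 ± 0.10 (SE, adjusted p = 0.00367). Mastl, the Greatwall kinase that keeps a phosphatase opposing Cdk1 in check, rose from 12.9, 13.02 and 12.2 to 18.6 and 16.2 CPM, by 0.45 ± 0.12 (SE, adjusted p = 0.0157). Cdkn1c (p57), an inhibitor of CDKs, fell from 42.6, 44.8 and 42.4 to 29.8 and 34.5 CPM, with a log2 fold change of -0.43 ± 0.09 (SE, adjusted p = 0.00196). Cks2, a small protein that binds CDKs, fell from 40.0, 38.2 and 44.7 to 32.5 and 33.5 CPM, with -0.30 ± 0.09 (SE, adjusted p = 0.0378). The libraries of both methods did not overlap in any of these 4 genes, as in 34.3% of all genes. These genes were picked by p-values from the same libraries, so this is no separate result. Cks2 was not among the called genes under scaling by library size, with the replicate block, with duplicates kept, without standard replicate 1 or 3, or without either AHARIBO library. Without AHARIBO replicate 1 none of the list passed, without standard replicate 1 only Cdkn1c and Cdc27 did, and without AHARIBO replicate 2 there were 6. DESeq2 called 0 of the list.

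By role, all 5 tested CDK inhibitors had negative log2 fold changes, with a median of -0.20, but Cdkn1c alone passed the threshold. Of the 12363 genes tested, 6246 had negative values. The other 4 inhibitors tested had log2 fold changes of -0.20 in Cdkn1a, -0.14 in Cdkn1b, -0.69 in Cdkn2a and -0.05 in Cdkn2d. Their coding sequences have 477, 591, 507 and 498 nt, in the same order. Cdkn2a had only 15 to 23 counts per library. Genes under 1000 nt had negative medians, as given below, and the part of length in these values was not tested. Cdkn1b (p27) had 39.7 ± 4.43 CPM (SD, n = 3) in standard and 35.7 ± 2.48 CPM (SD, n = 2) in AHARIBO, and overlapped. Cdkn2b and Cdkn2c did not pass the filter. The 13 G1 partners and E2F-RB genes had none past the threshold and a median of 0.10. Among them E2f4, a transcription factor bound by RB proteins, had 44.5 ± 2.98 and 42.0 ± 2.67 CPM, and its dimer partner Tfdp1 had 30.6 ± 2.62 and 32.4 ± 2.72 CPM. None of the 5 G1/S genes passed. Cdc25a, the phosphatase that activates Cdk2, had 33.6 ± 1.58 and 31.4 ± 1.61 CPM, and Cks1b, a CDK-binding protein, had 25.3 ± 2.25 and 26.4 ± 1.41 CPM.

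Of 16 G2/M genes tested, Mastl was higher and Cks2 lower. The 2 with the highest levels were Mybl2, a transcription factor of mitotic genes, with 164 ± 5.20 CPM in standard and 168 ± 1.93 CPM in AHARIBO, and Ccnf, with 90.3 ± 6.44 and 95.1 ± 1.55 CPM. The 3 genes of the CDK-activating kinase had a median of 0.02, and Cdk7 had 23.5 ± 1.64 and 23.8 ± 2.92 CPM, and Mnat1 had 21.5 ± 2.19 and 21.2 ± 0.00201 CPM. Of 6 spindle checkpoint genes none passed. Bub1b and Bub1, kinase-related proteins of the checkpoint, lay higher in both AHARIBO libraries (as did 17.3% of all genes), with log2 fold changes of 0.14 (adjusted p = 0.343) and 0.25 (adjusted p = 0.0777). Bub3, their binding partner, had a log2 fold change of -0.01 (adjusted p = 0.981) and overlapped. It ranks above Bub1 by the mean of the 5 libraries and below it with the methods weighted equally.

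Of 18 APC/C genes Cdc27 was higher and the median was 0.02. The ubiquitin-conjugating enzymes of the complex, Ube2s and Ube2c, had 136 ± 11.9 and 74.9 ± 4.02 CPM in standard and 117 ± 17.03 and 69.2 ± 3.10 CPM in AHARIBO, with overlap. For chromatid separation, Espl1 (separase) had 121 ± 4.26 and 119 ± 5.81 CPM. Its inhibitor Pttg1 (securin) lay higher in AHARIBO, with 19.5 ± 1.60 and 24.2 ± 2.03 CPM (adjusted p = 0.0593).

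Differences between the methods went with coding length over all genes. The median log2 fold change was -0.12 for coding sequences under 500 nt, -0.07 from 500 to 1000 nt, -0.01 from 1000 to 2000 nt, 0.06 from 2000 to 3000 nt and 0.11 from 3000 nt. The members are short to middle-sized, with 876 nt in Ccnd3 to 1809 nt in Plk1. The 4 below 1000 nt had a median of -0.11, with 0.17 in Ccnd1, -0.20 in Ccnd3, -0.02 in Cdk1 and -0.20 in Cdk4. The 6 above it had a median of -0.02, with 0.01 in Cdk2, -0.01 in Ccne1, -0.03 in Ccna2 and 0.05 in Ccnb1. The longest members, Cdc20 (1497 nt) and Plk1, had -0.17 and -0.10. The called list genes Mastl and Cdc27 have 2595 and 2475 nt, and Cks2 has 237 nt. Cdkn1c, with 1044 nt and a log2 fold change of -0.43, is in the class with a median of -0.01, in which 78 of 4673 genes were called lower. The part of coding length in the values of the members and the list genes was not tested.

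**Figure D3:**
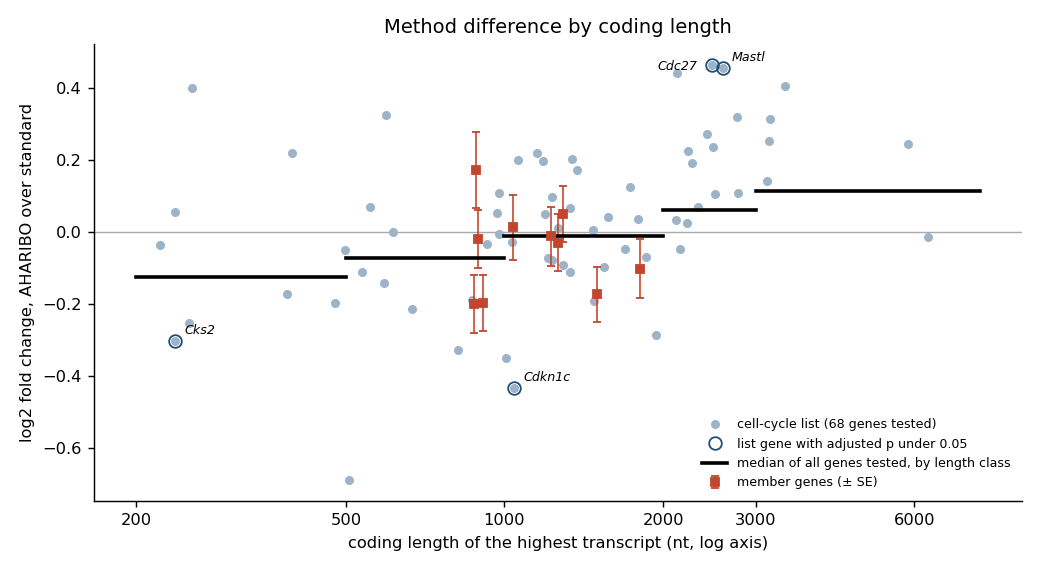
Log2 fold change of AHARIBO over standard against coding length (nt, log axis) for the 10 members (squares with SE), the 68 list genes (pale circles, called ones ringed and named) and the median of all genes tested in 5 length classes (black lines). The black lines rise from -0.12 to 0.11, and the members lie between -0.20 and 0.17.

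The table lists 70 transcripts of the 10 genes, 36 of them protein-coding and all 36 tested. They share exons, and how a read matching several was counted is not given in the sources used here, so they are not independent. The highest transcript held 11.03 to 11.8% of the summed protein-coding CPM of Ccnd3 and 32.1 to 32.4% of that of Cdk4. Of the 36, 3 were called lower in AHARIBO and none higher, against 4.31% of all protein-coding transcripts in both directions. They are 2 transcripts of Ccnd3 and 1 of Cdk4, the genes with 16 and 4 of the 36. Of 34 transcripts of other types, 30 were tested and none was called, against 4.72%, and over all transcripts tested the share was 4.51%.

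The Ccnd3 transcript ENSMUST00000182935.7, which holds only the first 130 coding nt, had 26.4, 24.0 and 25.2 CPM in standard and 17.1 and 19.2 CPM in AHARIBO. Its log2 fold change was -0.48 ± 0.10 (SE, adjusted p = 0.00355). The Ccnd3 transcript ENSMUST00000182874.2 had 57.0, 57.1 and 55.7 CPM in standard and 41.3 and 48.1 CPM in AHARIBO, with -0.34 ± 0.09 (SE, adjusted p = 0.0111). Cdk4 ENSMUST00000120226.7 had 82.5, 77.5 and 88.5 CPM in standard and 66.2 and 71.4 CPM in AHARIBO, with -0.26 ± 0.08 (SE, adjusted p = 0.0496). The libraries of the methods did not overlap in any of the 3, as in 34.3% of the highest transcripts of all genes. The 3 were picked by p-values from the same libraries, so this is no separate result. With DESeq2 the adjusted p-values were 0.0876, 0.108 and 0.198. Without AHARIBO replicate 1 they were 0.169, 0.404 and 0.447, and without standard replicate 1 only the first stayed under the threshold (0.0472, 0.0818 and 0.185). The Cdk4 transcript also lost the call without standard replicate 3 (0.167), with library size (0.0817) or DESeq2 size factors (0.0536) in place of TMM, with 1 CPM in every library (0.0508), with the replicate block (0.294) and with duplicates kept (0.383, log2 fold change of -0.13).

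Transcripts that hold only a piece of a coding sequence gave a view along it. The counts of such a transcript also hold reads of its other parts, such as a retained intron. Over the other genes, partial transcripts whose covered stretch had its midpoint in the first of 3 equal parts of the coding sequence had a log2 fold change lower than the highest transcript of the gene by a median difference of -0.08, those of the middle part differed by 0.04, and those of the last part by 0.09. The 32 partial transcripts of members gave medians of -0.03 over 13 transcripts, 0.02 over 10 and 0.06 over 9. The difference was negative for 8 of the 13 in the first part and for 1 of the 9 in the last, against 66.0% and 34.6% over the other genes.

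The level of a partial transcript was then given as a percentage of the highest transcript. In the first part, 5 of 13 member transcripts had lower percentages in both AHARIBO libraries than in all standard ones, against 25.2% of such transcripts of the other genes, and 1 had higher ones, against 8.19%. In the middle part, 5 of 10 had higher ones, against 17.5%, and 2 had lower ones, against 9.59%. In the last part, 3 of 9 had higher ones, against 23.1%, and 0 had lower ones, against 6.68%. The members are few, and several of their transcripts overlap.

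Stretches at the start side of Ccnd3 and Ccne1 and at the end side of Ccna2, whose transcripts did not overlap between the methods, are shown, from the coding sequence of the highest transcript, 5′ to 3′ on the coding strand, spliced where they cross introns, with in-frame methionine codons in capitals.
Ccnd3, codons 1 to 44 (chr17:47593655-47593784, plus strand): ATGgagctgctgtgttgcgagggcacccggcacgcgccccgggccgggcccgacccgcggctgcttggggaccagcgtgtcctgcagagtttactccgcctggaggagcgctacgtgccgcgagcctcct
Ccne1, codons 1 to 66 (chr7:38103168-38106800, minus strand): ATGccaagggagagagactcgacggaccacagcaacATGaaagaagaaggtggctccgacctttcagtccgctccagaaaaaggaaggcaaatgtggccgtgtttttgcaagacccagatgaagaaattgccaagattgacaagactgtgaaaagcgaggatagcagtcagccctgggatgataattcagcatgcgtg
Ccna2, codons 363 to 422 (chr3:36566237-36566674, minus strand): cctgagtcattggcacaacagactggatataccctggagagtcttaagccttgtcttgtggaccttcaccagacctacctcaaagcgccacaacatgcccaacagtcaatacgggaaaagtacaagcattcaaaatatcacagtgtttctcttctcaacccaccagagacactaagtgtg

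The Ccnd3 stretch has no methionine codon after the start. Its transcript stood at 23.9, 21.3 and 23.1% of the highest Ccnd3 transcript in standard and at 19.2 and 18.5% in AHARIBO. The Ccne1 stretch has a second methionine codon at codon 13, and its transcript (ENSMUST00000124979.2) stood at 40.5, 36.2 and 41.5% in standard and at 31.6 and 32.5% in AHARIBO. Both were lower in AHARIBO without overlap. They were chosen for these values, and methionine content was not tested.

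Ccna2 gave values at both ends. The transcript over codons 1 to 144 (ENSMUST00000145309.1) stood at 56.1, 55.7 and 55.1% of the highest in standard and at 46.3 and 49.6% in AHARIBO. The transcript over codons 363 to 422 (ENSMUST00000156575.1), the last stretch shown, stood at 8.08, 8.38 and 9.02% in standard and at 9.96 and 12.03% in AHARIBO. The start side was lower and the end side higher in AHARIBO, without overlap, while the highest transcript of Ccna2 had a fold of 0.98.

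On the end side, Ccnd3 and Ccne1 each had 1 transcript with higher values without overlap and another that overlapped. Ccnd3 ENSMUST00000182539.7, over codons 139 to 292, stood at 39.7, 40.5 and 37.1% in standard and at 40.8 and 41.5% in AHARIBO. Over codons 139 to 272, which lie within that stretch, ENSMUST00000183256.7 stood at 33.37, 35.9 and 30.4% and at 35.0 and 34.4%, with overlap. Ccne1 ENSMUST00000137097.1, over codons 279 to 368, stood at 14.0, 14.7 and 12.7% in standard and at 16.4 and 15.1% in AHARIBO, while ENSMUST00000128785.1, over codons 267 to 368, stood at 17.2, 19.2 and 17.05% and at 19.8 and 18.5%, with overlap. In the middle of Ccnd1, ENSMUST00000135985.1, over codons 67 to 191, stood at 18.5, 18.6 and 16.5% in standard and at 22.0 and 24.6% in AHARIBO, without overlap.

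Ccnb1 ENSMUST00000128279.1, over codons 70 to 179, was the start-side transcript that lay higher without overlap, at 19.6, 18.8 and 19.68% in standard and at 20.9 and 19.71% in AHARIBO. In the middle of Cdk4, 2 transcripts lay lower without overlap: ENSMUST00000135179.7 stood at 52.0, 53.3 and 51.6% and at 50.6 and 50.7%, and ENSMUST00000120226.7 at 66.1, 62.8 and 67.7% and at 62.3 and 62.77%. On the start side, Cdk1 ENSMUST00000124054.1, over codons 1 to 106, also lay lower without overlap. It stood at 39.4, 42.3 and 41.3% in standard and at 39.3 and 37.6% in AHARIBO. So did Ccnd3 ENSMUST00000182874.2, at 51.5, 50.8 and 51.0% in standard and at 46.2 and 46.3% in AHARIBO. The remaining start-side transcripts overlapped between the methods. The Plk1 transcript over codons 1 to 277 (ENSMUST00000206470.1) stood at 38.2, 35.4 and 33.2% in standard and at 37.6 and 38.1% in AHARIBO, with overlap. Ccne1 ENSMUST00000130329.1, over codons 1 to 167, stood at 23.1, 21.2 and 27.2% in standard and at 29.8 and 25.2% in AHARIBO, also with overlap. In Cdk2 the transcripts over codons 1 to 162 and 1 to 196 differed from the highest by -0.03 on the log2 scale, with overlap.

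**Figure D4:**
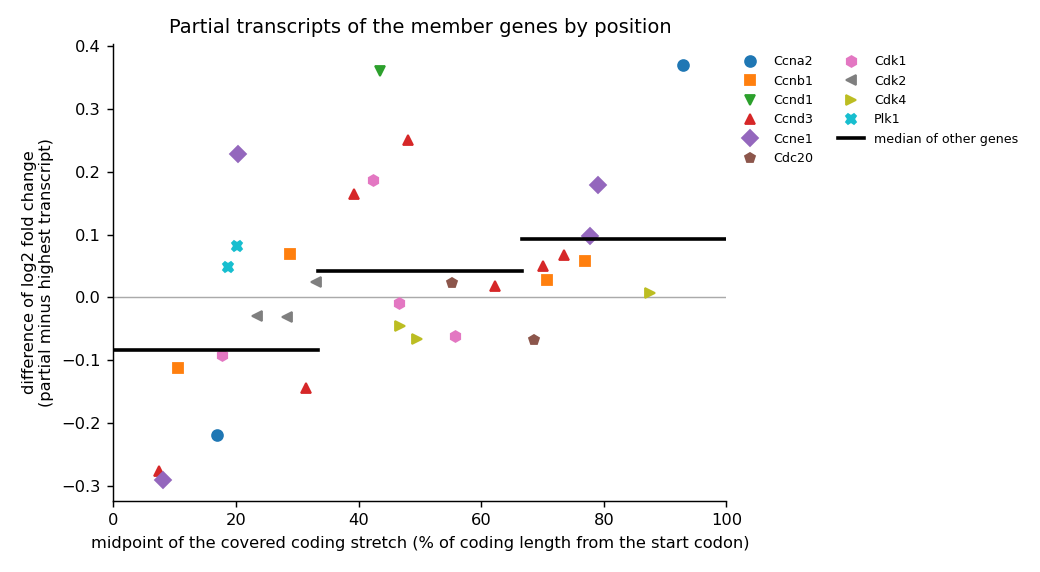
Difference of the log2 fold change between each partial transcript and the highest transcript of its gene, against the midpoint of the covered stretch (% of coding length from the start codon), with 1 symbol per member gene and black lines for the medians of the other genes in the first, the middle and the last part of the coding sequence. The black lines step from -0.08 to 0.04 and 0.09, and the members scatter around them.

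Several members have processed pseudogenes whose transcripts are in the same table, so part of a member's footprints cannot be assigned to 1 gene. Of the 30-nt windows of the Ccnb1 coding sequence, 91.8% also occur in a transcript of another gene, and 79.1% of all its windows occur in Ccnb1-ps. For Ccnd3 the share was 35.7%, all with Ccnd3-ps, for Cdc20 34.3%, for Plk1 19.3% and for Cdk4 2.95%. Ccnd1, Ccne1, Ccna2, Cdk1 and Cdk2 shared none.

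Ccnb1-ps (GRCm38 chr7:42105899-42107185, minus strand) is 99.2% identical to the Ccnb1 coding sequence over 1287 aligned positions. Ccnd3-ps (chr4:139345300-139346180, minus strand) is 96.2% identical to that of Ccnd3 over 878. The aligned 30-nt windows with the most differences are shown, with the differing bases in capitals.
Ccnb1: gcagtgagtgaCgtagacgcagatgatggG
Ccnb1-ps: gcagtgagtgaTgtagacgcagatgatggA
Ccnd3: gaGcctcctActtccagtgcGtgcaaaagG
Ccnd3-ps: gaTcctcctCcttccagtgcAtgcaaaagA

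These windows start at base 445 of the Ccnb1 and at base 122 of the Ccnd3 coding sequence. Away from such differences, a footprint of 25 to 35 nt matches both genes. Ccnb1-ps was listed at 100.2, 99.3 and 104.9 CPM in standard and at 102 and 106 CPM in AHARIBO, close to the 134 to 145 CPM of Ccnb1. The pseudogenes Gm12856, Gm8416 and Gm4870, which share 62.6, 57.5 and 33.5% of the Ccnb1 windows, were listed at means of 78.8, 70.6 and 49.3 CPM in standard. Ccnd3-ps had 35.7 CPM in standard and 31.5 CPM in AHARIBO (means), Gm7856, which shares 31.2% of the Cdc20 windows, had 31.4 and 29.2 CPM, and Plk-ps1 had 17.8 and 15.6 CPM. None of these differed between the methods past the threshold. The levels of Ccnb1, Ccnd3, Cdc20, Plk1 and, for few windows, Cdk4 are therefore uncertain by what their pseudogenes share. Untranslated regions and matches with mismatches were not searched for any member.

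**Figure D5:**
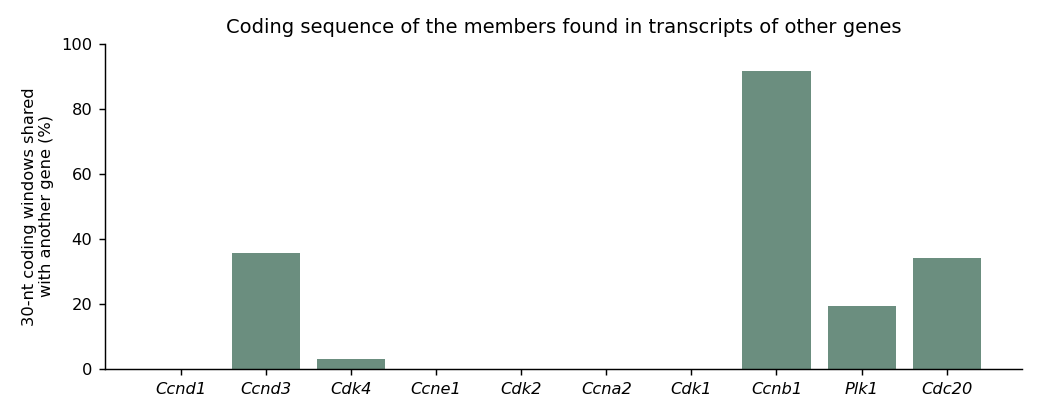
Share of the 30-nt windows of each member's coding sequence (%, bars from 0) that also occur in a Gencode M21 transcript of another gene. Ccnb1 stands at 91.8%, Ccnd3 at 35.7%, Cdc20 at 34.3%, Plk1 at 19.3%, Cdk4 at 2.95%, and 5 members stand at 0.

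The share of reads removed as duplicates differed between members. It was 8.5 to 16.1% for Ccnd1 and 11.5 to 15.8% for Cdk2, 39.7 to 50.4% for Cdk4 and 29.5 to 43.4% for Ccnb1, and between 17.1 and 36.3% for the other 6. The median over the highest transcripts of all genes was 9.38 to 14.0%, while of the sum of their reads 41.1 to 43.7% were removed, and 43.3 to 47.7% of the reads of all transcripts. For Cdk4 the removed share was 42.8, 42.7 and 39.7% in standard and 50.4 and 42.8% in AHARIBO. With duplicates kept, 0 of the 10 members were called and the smallest adjusted p among them was 0.114. The log2 fold change of Cdk4 was then -0.09 in place of -0.20, that of Cdc20 -0.11 in place of -0.17, that of Ccnb1 0.18 in place of 0.05, and that of Cdk1 0.13 in place of -0.02. Ccnd3 and Plk1 moved down, to -0.25 in place of -0.20 and to -0.15 in place of -0.10. Ccnd1, Ccne1, Ccna2 and Cdk2 then had 0.15, -0.01, -0.03 and -0.02.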

How the data were processed

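The authors trimmed the reads (Trimmomatic 0.36), discarded rRNA and tRNA matches, mapped what remained with STAR to Gencode M17 transcripts, and left out antisense and duplicate reads. The deposited table holds raw counts per transcript with and without duplicates, and transcript lengths in nt. How reads matching several transcripts were counted is not given in the sources used here. The counts without duplicates of all 5 libraries were used. Symbols, types and coding lengths came from Gencode M21 (99.8% of 135276 transcripts matched).

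CPM values were scaled with TMM, and transcripts with 1 CPM in at least 1 library were tested with edgeR 4.0.16 (R 4.3.3) quasi-likelihood fits, adjusted by Benjamini-Hochberg over all 66972 transcripts. DESeq2 1.42.0 was the alternative. SEs are approximate. In simulated data of this comparison (66667 transcripts) edgeR found 81% of 2-fold changes and called 7 unchanged transcripts, and DESeq2 found 56% and called 0. There every transcript had the same added spread and was drawn on its own, while the real ones share exons. Changes were placed only in transcripts above a minimum count. Changes as small as those of the members were not simulated. Groups and replicate numbers came from the labels. Named were the 10 members, list genes past the threshold, and per role up to 2 list genes with the highest mean CPM (Bub1 and Bub3 swap places with the weighting of the methods). Members and lists were chosen with earlier results of these data known. Partial transcripts covered at most 60% and at least 90 nt of a coding sequence of 300 nt or more, and these, the shared windows and the length classes were added after values were seen. Counting floors cover counting error only, while the intervals of folds come from the edgeR SEs. P-values measure the spread between these libraries.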

Additional observations from a re-analysis of the deposited data

How the results depend on the processing

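The count of called members was 0 under the alternatives of test, scaling, filter, duplicates, replicate block and summing per gene, and 0 to 1 when leaving out 1 library each. Each member's log2 fold change kept its side of the threshold in these settings, except Ccnd3 without AHARIBO replicate 2. Values near 0 changed sign under library size (Ccne1, Ccna2, Cdk1), the block (Ccne1, Cdk2), duplicates kept (Cdk1, Cdk2), summing per gene (Ccne1, Ccna2) and leaving out 1 library (Ccne1, Cdk1, Cdk2). Over all transcripts 3021 were called. DESeq2 called 272, the authors' stricter limits for RNA-seq (log2 fold change past 1.5, adjusted p of 0.01 or less) gave 105, and summing the protein-coding transcripts per gene gave 28 genes. Leaving out 1 library gave 510 to 3829. The replicate block, fitted on replicates 1 and 2 only, gave 1776, and the same libraries without the block, added after seeing the data, gave 1815. Which libraries of both methods share a lysate is not given in the sources used here, so they were not treated as pairs. Deviations of same-numbered libraries from the mean of their method had r of 0.04 and -0.08. With 2 AHARIBO libraries these deviations mirror each other, so the r values cannot decide the pairing. For the cell cycle list, with 4 called, DESeq2 and summing per gene gave 0, library size in place of TMM gave 7, and leaving out 1 library gave 0 to 6. For member transcripts, with 3 called, DESeq2 gave 0 and leaving out 1 library gave 0 to 4. The span of member levels per kb, 6.52-fold, was 13.4-fold per transcript length, 9.75-fold with duplicates and 95.5-fold summed over transcripts. The causes were not tested.

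With 2 AHARIBO libraries, differences of the size seen here (up to 0.20 on the log2 scale with SEs of 0.08 to 0.10) were not called.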
